A study of Homo sapiens with 6 samples.

Results

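The genes described here are 34 genes of DNA replication and S phase. They include the origin recognition subunit ORC1, the MCM2 to MCM7 helicase, the polymerase clamp PCNA and the nucleotide enzymes TYMS, RRM1 and RRM2. They also include E2F and cyclin E genes that control S phase entry. They were chosen by symbol: a gene's probe set had to carry that symbol alone in the platform annotation, and where a gene had more than 1 such probe set (UHRF1 and CLSPN, with 2 each) the one with the highest mean was kept. All 34 of 34 were measured, among 18377 genes in all, and no filter on low values was applied. The study used MCF10A-HER2/3 cells, named in the labels as a derivative of MCF10A, an immortalised human mammary epithelial line that forms hollow spheres in three-dimensional culture. Cells carried a doxycycline-inducible lentiviral construct expressing SHP2 miR1, SHP2 miR2 or a control miR (CTRL miR), each measured on 2 arrays (6 in all). The sample titles name all 6 as 3D cultures. All 3 groups received doxycycline, first given 1 day after seeding and renewed every 2 days. They were harvested after 15 days in medium with EGF, insulin, cholera toxin, hydrocortisone and horse serum. Whether the replicate arrays stem from different cultures is not in the labels. The p-values thus cover the variation among these arrays alone, and that variation may be technical.

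DNA replication starts in G1 phase, when ORC, CDC6 and CDT1 load the ring-shaped MCM2-7 complex onto origins. At S phase entry, kinases together with MCM10, CDC45 and the GINS complex turn that ring into an active helicase, and the polymerases follow. Transcription of most of these genes is held down by RB family proteins on E2F sites in resting cells and is released when cyclin D and cyclin E kinases act on RB, downstream of growth factor signals. SHP2, the phosphatase encoded by PTPN11, relays growth factor receptor signals to the RAS-ERK pathway.

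A feature that the choice of genes did not use is the letters of their promoters. RefSeq windows of 300 bases (250 before and 50 after the annotated start, GRCh38.p14) were at hand for 30 of the 34 genes, with no entry for MCM4, MCM5, CCNE2 and E2F8. The E2F letters TTTGGCGC, TTTCGCGC, TTTCCCGC or TTTGCCGC, on either strand and with overlapping matches counted, stood in 17 of the 30 windows (56.7%), against 908 of 27303 promoters of the same length (3.33%). The 27303 promoters, 1 per symbol, were not limited to genes on the array or matched to the members in base content. In 12 of the 17 at least 1 match began within 100 bases before the start. The letters CCAAT, a box read by NF-Y, stood in 20 of 30 (66.7%), against 35.7% of all promoters. The cell cycle homology letters TTTGAA or TTCGAA, known from late cell cycle genes, stood in 2 of 30 (6.67%), against 16.6%. The 6 stretches of 60 bases below show where the E2F letters lie in 6 of the genes with a match. Each is read 5′ to 3′ on the gene's strand, with the E2F letters in capitals. ORC1, MCM10, CCNE1 and TIPIN, whose values are also given below, had 0 E2F matches. CDT1 and DTL had differences of opposite sign, MCM6 was among the genes with the widest gap between the SHP2 miRs and PCNA between the controls, MCM7 was slightly higher on all 4 SHP2 miR arrays, and E2F1 had a difference of -0.01.
CDT1, chr16:88803728-88803787, + strand: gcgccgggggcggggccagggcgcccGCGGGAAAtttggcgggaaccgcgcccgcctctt
DTL, chr1:212035688-212035747, + strand: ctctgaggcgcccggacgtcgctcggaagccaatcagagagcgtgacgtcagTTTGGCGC
MCM6, chr2:135876496-135876555, - strand: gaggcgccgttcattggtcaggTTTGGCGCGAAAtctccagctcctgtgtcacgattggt
MCM7, chr7:100101398-100101457, - strand: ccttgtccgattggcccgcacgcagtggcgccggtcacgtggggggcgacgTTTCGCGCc
PCNA, chr20:5126648-5126707, - strand: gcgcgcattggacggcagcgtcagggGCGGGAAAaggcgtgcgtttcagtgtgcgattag
E2F1, chr20:33686386-33686445, - strand: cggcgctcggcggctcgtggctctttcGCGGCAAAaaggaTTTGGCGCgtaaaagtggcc
MCM6 holds TTTGGCGC and TTTCGCGC on opposite strands, sharing letters. A match is a description of these letters and not a measured binding site. The 17 genes with a match had a median difference (mean of both SHP2 miRs minus CTRL miR, log2) of -0.01, and the 13 without one had -0.07.

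The values are log2 probe set values from a 1-colour Affymetrix whole-transcript array. Levels are therefore compared between arrays and, apart from a rough floor, not between genes. The members' mean values lay between 4.34 and 8.56. CDKN2A and MTAP, genes lost from the MCF10A genome, served as that floor, with a mean between 4.62 and 5.14 by array. With 2 genes it is only a rough guide to background. The means of CCNE2 (4.34), E2F8 (4.36) and CLSPN (4.54) were lower still, so their signal may be near background. PTPN11, the target of the SHP2 miRs, had 6.04 and 5.71 under SHP2 miR1, 6.90 and 7.28 under SHP2 miR2, against 7.96 and 8.44 with CTRL miR. In the mean of the 2 SHP2 miRs PTPN11 fell by 1.72 (SE 0.19, 3.28-fold, adjusted p = 0.00184). Taken alone, SHP2 miR1 gave adjusted p = 0.000548 and SHP2 miR2 0.0813. Of the receptor genes that give the line its name, ERBB3 fell by 1.35 (adjusted p = 0.000959) and ERBB2 had -0.38 (adjusted p = 0.136). Of the measured marker genes 1 of 6 of mammary epithelium, 0 of 4 of fibroblasts, 1 of 3 of endothelium and 0 of 3 of leukocytes rose. None of them fell. Of all genes 1.53% passed as higher and 2.67% as lower. The mean log2 value over the endothelial list lay between 4.64 and 4.97 with the SHP2 miRs and at 4.65 and 4.47 with CTRL miR. Over the leukocyte list it lay between 4.88 and 5.26 with the SHP2 miRs and at 4.59 and 4.79 with CTRL miR. The ranges of both lists overlapped that of the floor genes CDKN2A and MTAP. PECAM1, a gene of endothelium, had 5.69, 5.55, 5.62 and 5.45 with the SHP2 miRs, against 5.06 and 4.89 with CTRL miR, and passed the threshold (adjusted p = 0.0422). CDH5 and VWF, which also mark endothelium, had average differences of 0.06 and 0.02, and the monocyte gene CD14 had 0.96 (adjusted p = 0.0505). The basal keratin KRT14 rose by 1.10 (adjusted p = 0.00440). The part of these genes in the replication genes' values was not tested. Array medians lay between 5.23 and 5.35.

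None of the 34 replication genes passed the threshold of 0.05 on limma's Benjamini-Hochberg adjusted p when both SHP2 miRs were averaged and set against CTRL miR. The lowest adjusted p was 0.129, for ORC1. In the same fit 771 of 18377 genes (4.20%) passed. At an unadjusted p under 0.05, 6 of the 34 (17.6%) were counted, 2 higher and 4 lower, against 20.9% of all genes. The members' differences ran from -0.42 to 0.42 with a median of -0.05, beside a median of 0.02 over all genes, and 21 of 34 (61.8%) were below 0, against 47.2%. All 34 had 95% intervals within 1 log2 unit of 0, as did 17430 of all 18377 genes, and 20 had intervals within 0.5, as did 7780 of all genes. The intervals reached from -0.76 for DTL to 0.74 for CDT1. In bulk RNA, fewer cells in S phase and less of a transcript per cell cannot be told apart.

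**Figure D1:**
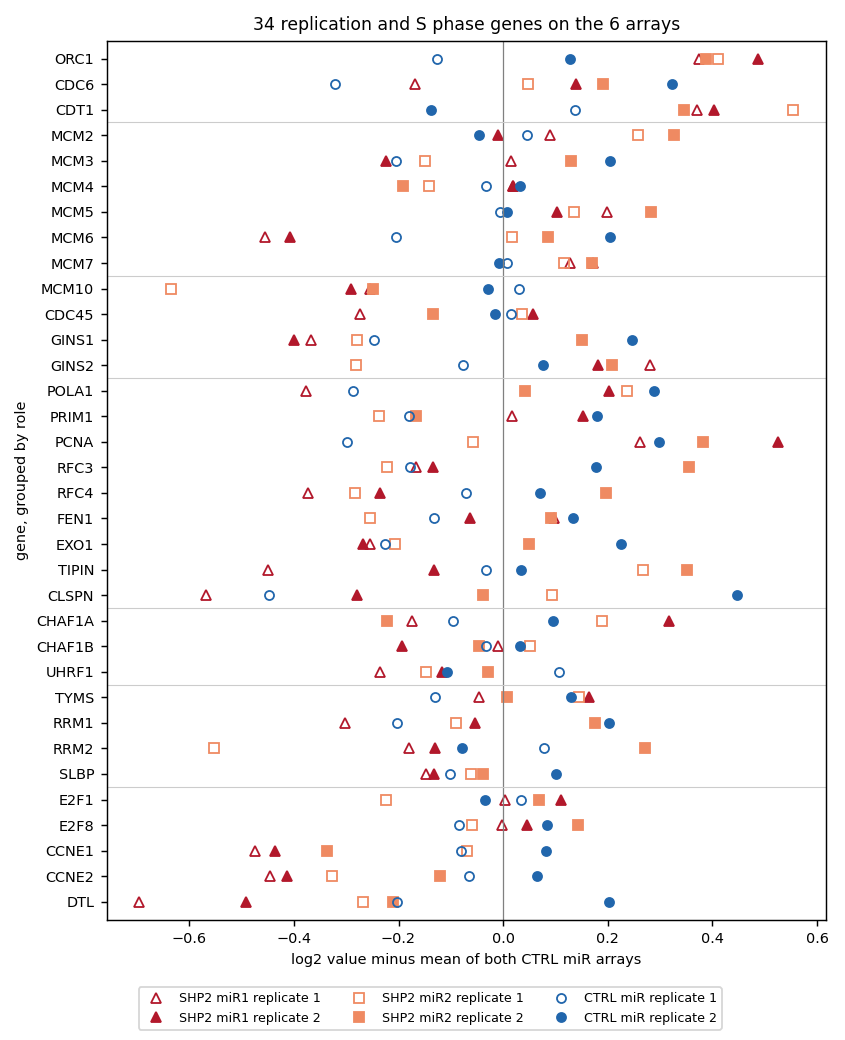
Log2 value of each of the 34 genes minus the mean of both CTRL miR arrays (horizontal axis). Genes are grouped by role, from origin licensing at the top to S phase control at the bottom. Triangles are SHP2 miR1, squares SHP2 miR2 and circles CTRL miR, with replicate 1 open and replicate 2 filled. ORC1 and CDT1 lie above both controls on all 4 SHP2 miR arrays and DTL, CCNE2 and MCM10 below, while for most genes the SHP2 miR points mix with the controls.

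The SHP2 miR arrays lay wholly outside the controls for 7 genes. Lower than both controls on all 4 SHP2 miR arrays were 3 of 34 (8.82%), namely MCM10, CCNE2 and DTL, against 13.6% of all genes. Higher were 4 of 34 (11.8%), namely ORC1, CDT1, MCM5 and MCM7, against 12.6%. Both shares are at or under those of all genes.

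Among the origin licensing factors, ORC1 and CDT1 had the highest differences of the 34. ORC1, the ATP-binding subunit that marks origins, had 6.14 and 6.25 under SHP2 miR1, 6.18 and 6.16 under SHP2 miR2, against 5.64 and 5.89 with CTRL miR. The groups did not overlap, and the difference was 0.42 (SE 0.14, 1.33-fold, 95% interval 0.11 to 0.72, adjusted p = 0.129). CDT1, the loader of the MCM ring that is destroyed once S phase begins, had 6.67 and 6.71 under SHP2 miR1, 6.86 and 6.65 under SHP2 miR2, against 6.44 and 6.17 with CTRL miR. Its difference was 0.42 (SE 0.14, 1.34-fold, 95% interval 0.10 to 0.74, adjusted p = 0.140). CDC6, the ATPase that works with CDT1, had 5.60 and 5.91 under SHP2 miR1, 5.82 and 5.96 under SHP2 miR2, against 5.45 and 6.09 with CTRL miR. Here the controls enclosed all 4 SHP2 miR arrays, with a difference of 0.05 (SE 0.19, adjusted p = 0.907).

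The 6 subunits of the MCM2-7 helicase did not share a direction, with 3 above 0 and 3 below 0 and a range from -0.19 to 0.18. MCM5 had 7.47 and 7.38 under SHP2 miR1, 7.41 and 7.56 under SHP2 miR2, against 7.27 and 7.28 with CTRL miR. MCM7 had 7.91 and 7.95 under SHP2 miR1, 7.90 and 7.95 under SHP2 miR2, against 7.79 and 7.77 with CTRL miR. Both were higher on all 4 SHP2 miR arrays, by 0.18 (SE 0.13) and 0.15 (SE 0.12), with adjusted p = 0.459 and 0.536. MCM2 had a difference of 0.17, MCM3 of -0.06 and MCM4 of -0.07, each with arrays of the SHP2 miRs on both sides of a control. MCM6 had 6.55 and 6.60 under SHP2 miR1, 7.02 and 7.09 under SHP2 miR2, against 6.80 and 7.21 with CTRL miR. Only the SHP2 miR1 arrays lay below both controls.

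Of the 4 factors that activate the helicase, MCM10 and GINS1 had the lowest differences. MCM10, a scaffold that helps the helicase leave the origin, had 5.41 and 5.38 under SHP2 miR1, 5.03 and 5.42 under SHP2 miR2, against 5.70 and 5.64 with CTRL miR. All 4 lay below both controls, with a difference of -0.36 (SE 0.15, 1.28-fold, adjusted p = 0.209). GINS1 had 5.82 and 5.79 under SHP2 miR1, 5.91 and 6.34 under SHP2 miR2, against 5.94 and 6.44 with CTRL miR. Its second SHP2 miR2 array lay between the controls, and the difference was -0.22 (SE 0.18, adjusted p = 0.519). CDC45 had -0.08 and GINS2 0.10, with overlapping groups.

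The 9 genes of the replication fork had differences between -0.20 and 0.28 and a median of -0.04. PCNA, the sliding clamp that tethers polymerases, had 7.50 and 7.76 under SHP2 miR1, 7.18 and 7.62 under SHP2 miR2, against 6.94 and 7.54 with CTRL miR. All 4 lay above one control, and 2 of them above the other, with a difference of 0.28 (SE 0.20, adjusted p = 0.468). CLSPN, the checkpoint mediator claspin, had 4.10 and 4.39 under SHP2 miR1, 4.77 and 4.63 under SHP2 miR2, against 4.23 and 5.12 with CTRL miR. Its controls stood further apart than those of any other member. POLA1, the catalytic subunit of polymerase alpha, had 5.16 and 5.74 under SHP2 miR1, 5.77 and 5.58 under SHP2 miR2, against 5.25 and 5.82 with CTRL miR, and a difference of 0.03 (SE 0.21). The primase PRIM1, the clamp loader subunits RFC3 and RFC4 and the flap and 5′ nucleases FEN1 and EXO1 had -0.06, -0.04, -0.17, -0.03 and -0.17, all with overlapping groups.

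Chromatin, nucleotide and histone message genes, 7 in all, had differences between -0.15 and 0.07. CHAF1A and CHAF1B, which deposit histones behind the fork, had 0.03 and -0.05, and UHRF1, which guides maintenance methylation, had -0.13. TYMS, which makes thymidylate, had 7.60 and 7.80 under SHP2 miR1, 7.78 and 7.65 under SHP2 miR2, against 7.51 and 7.77 with CTRL miR. The ribonucleotide reductase subunit genes RRM1 and RRM2 had -0.07 and -0.15. SLBP, which binds the stem-loop of histone messages, had -0.10. The lowest adjusted p among these 7 genes was 0.614.

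Of the 5 genes that control S phase entry or act within S phase 0 passed. Their differences were -0.42 for DTL, -0.33 for each cyclin E gene, -0.01 for E2F1 and 0.03 for E2F8. DTL, the substrate receptor of the ubiquitin ligase that destroys CDT1 in S phase, had 6.62 and 6.82 under SHP2 miR1, 7.05 and 7.10 under SHP2 miR2, against 7.11 and 7.52 with CTRL miR. The groups did not overlap, by a narrow margin for SHP2 miR2, and the difference was -0.42 (SE 0.15, 1.33-fold, 95% interval -0.76 to -0.07, adjusted p = 0.172). It was -0.62 without CTRL miR replicate 1 and -0.21 without replicate 2. CCNE1, a partner of CDK2 at the G1 to S transition, had 6.22 and 6.26 under SHP2 miR1, 6.63 and 6.36 under SHP2 miR2, against 6.62 and 6.78 with CTRL miR. One SHP2 miR2 array lay between the controls, and the difference was -0.33 (SE 0.14, 1.26-fold, adjusted p = 0.219). CCNE2 had 4.11 and 4.15 under SHP2 miR1, 4.23 and 4.44 under SHP2 miR2, against 4.49 and 4.62 with CTRL miR. The groups did not overlap, and its difference was -0.33 (SE 0.13, adjusted p = 0.205). On each array CCNE2 lay below the mean of CDKN2A and MTAP, so its signal may be near background. E2F1, an activator of the program, had 6.13 and 6.24 under SHP2 miR1, 5.90 and 6.19 under SHP2 miR2, against 6.16 and 6.09 with CTRL miR, with an SE of 0.14 on its difference. The repressor E2F8 had an SE of 0.13. Under quantile normalization the signs of E2F1 and E2F8 turned.

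**Figure D2:**
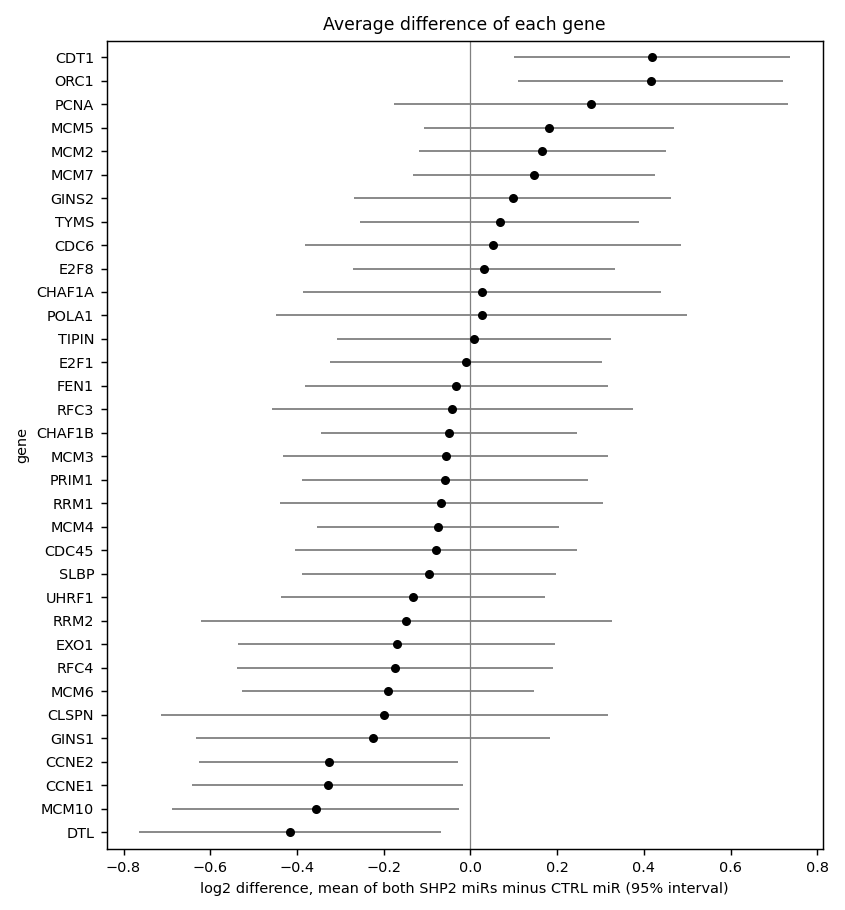
Difference of each of the 34 genes on the log2 scale, mean of both SHP2 miRs minus CTRL miR (points), with the 95% interval of the limma fit (bars), ordered by size. CDT1 and ORC1 at 0.42 and DTL at -0.42 are the extremes of this fit, DTL moving to -0.21 without CTRL miR replicate 2, and 0 of 34 passed the adjusted threshold.

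With SHP2 miR1 alone, under which PTPN11 fell by 2.32, 0 of 34 members passed, against 8.60% of all genes. The lowest adjusted p was 0.0718, for DTL, with a difference of -0.59 (SE 0.18, 1.51-fold). The members' median was -0.10, and 20 of 34 (58.8%) were below 0, against 45.9% of all genes. At an unadjusted p under 0.05 there were 6 (17.6%), against 28.1%. These were DTL, CCNE1 at -0.46, MCM6 at -0.43 and CCNE2 at -0.43 on the low side, and ORC1 at 0.43 and CDT1 at 0.39 on the high side. MCM6 had -0.23 without CTRL miR replicate 2, and CDT1 0.25. Both SHP2 miR1 arrays lay below both controls for 12 of 34 (35.3%), against 29.0% of all genes, and above them for 5 of 34 (14.7%), against 30.5%. DTL passed with a mean-variance trend (limma adjusted p = 0.0248) or with dim genes left out (0.0467). Over all genes, either direction, 2786 passed with the trend and 2118 with dim genes left out. Without CTRL miR replicate 2, DTL had -0.39.

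With SHP2 miR2 alone, 0 of 34 passed, against 0.370% of all genes, and the lowest adjusted p was 0.352, for CDT1. The median was -0.01, and 18 of 34 (52.9%) were below 0, against 51.8% of all genes. At an unadjusted p under 0.05 there were 3 (8.82%), against 11.0%, namely CDT1 at 0.45, ORC1 at 0.40 and MCM10 at -0.44. MCM10 had -0.25 without SHP2 miR2 replicate 1. Both SHP2 miR2 arrays lay below both controls for 4 of 34 (11.8%), against 20.8%, and above them for 6 of 34 (17.6%), against 19.8%. The comparisons of SHP2 miR1 and SHP2 miR2 use the same control arrays, so ORC1 and CDT1 being high in both is not independent evidence.

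Set directly against each other, SHP2 miR2 minus SHP2 miR1, 0 of 34 members passed, against 0.190% of all genes. The median was 0.09, and 2 of 34 (5.88%) had an unadjusted p under 0.05, against 17.7%. SHP2 miR2 was wholly above SHP2 miR1 for 10 of 34 (29.4%), against 26.4%, and wholly below for 2 of 34 (5.88%), against 25.4%. TIPIN, a fork protection factor that pairs with TIMELESS, had 5.96 and 6.04 with SHP2 miR2 and 5.24 and 5.56 with SHP2 miR1, and the controls had 5.65 and 5.72. The SHP2 miRs lay on opposite sides of both controls, with a difference of 0.60 (SE 0.16, 95% interval 0.24 to 0.96, adjusted p = 0.140). Such opposed placement was found in 1 of 34 members and in 3.19% of all genes. MCM6 had a difference of 0.48 (SE 0.17, 95% interval 0.09 to 0.87, adjusted p = 0.213). TIMELESS itself had differences of -0.38 for SHP2 miR1 and -0.09 for SHP2 miR2 against CTRL miR.

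Within each of the 3 groups taken alone, replicate 2 was above replicate 1 for most of these genes. This held for 24 of 34 with SHP2 miR1, against 50.9% of all genes, and for 24 of 34 with SHP2 miR2, against 49.7%. CTRL miR replicate 2 was above replicate 1 for 26 of 34 members, against 50.1% of all genes, with a median of 0.18 in the members and 0.00 over all genes. The difference reached at least 0.5 in size for 4 members, against 8.84% of all genes: CLSPN at 0.89, CDC6 at 0.64, PCNA at 0.60 and POLA1 at 0.58. For all 9 fork genes replicate 2 was the higher, with a median of 0.36. CTRL miR replicate 2 held the highest value of the 6 arrays for 15 of 34 (44.1%), against 23.5% of all genes. The SHP2 miR1 and SHP2 miR2 replicates differed by a median size of 0.11 and 0.20 in the members, and the controls by 0.21. Over all genes these sizes were 0.16, 0.18 and 0.19.

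The sign of the members' average difference therefore depended on which control was used. Against CTRL miR replicate 2, the mean of the 4 SHP2 miR arrays was lower for 27 of 34 (79.4%), against 46.5% of all genes, with a median of -0.14. Against CTRL miR replicate 1 it was lower for 11 of 34 (32.4%), against 51.2%, with a median of 0.11. For 18 of 34 (52.9%) it lay between the controls, against 30.5% of all genes. PCNA had 0.58 against CTRL miR replicate 1 and -0.02 against replicate 2. CLSPN had 0.25 and -0.65, POLA1 0.31 and -0.26, CDC6 0.37 and -0.27, and EXO1 0.06 and -0.40 against replicates 1 and 2. ORC1 and CDT1 were higher against either control, and DTL, CCNE1, CCNE2 and MCM10 lower. Replicate 2 was above replicate 1 in all 3 groups for 12 of 34 members (35.3%), against 15.4% of all genes, among them PCNA, RRM1, MCM6, CDC6 and DTL. Over all genes the replicate differences of the groups correlated at 0.07 for CTRL miR with SHP2 miR1, 0.14 for CTRL miR with SHP2 miR2 and 0.01 between the SHP2 miRs.

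**Figure D3:**
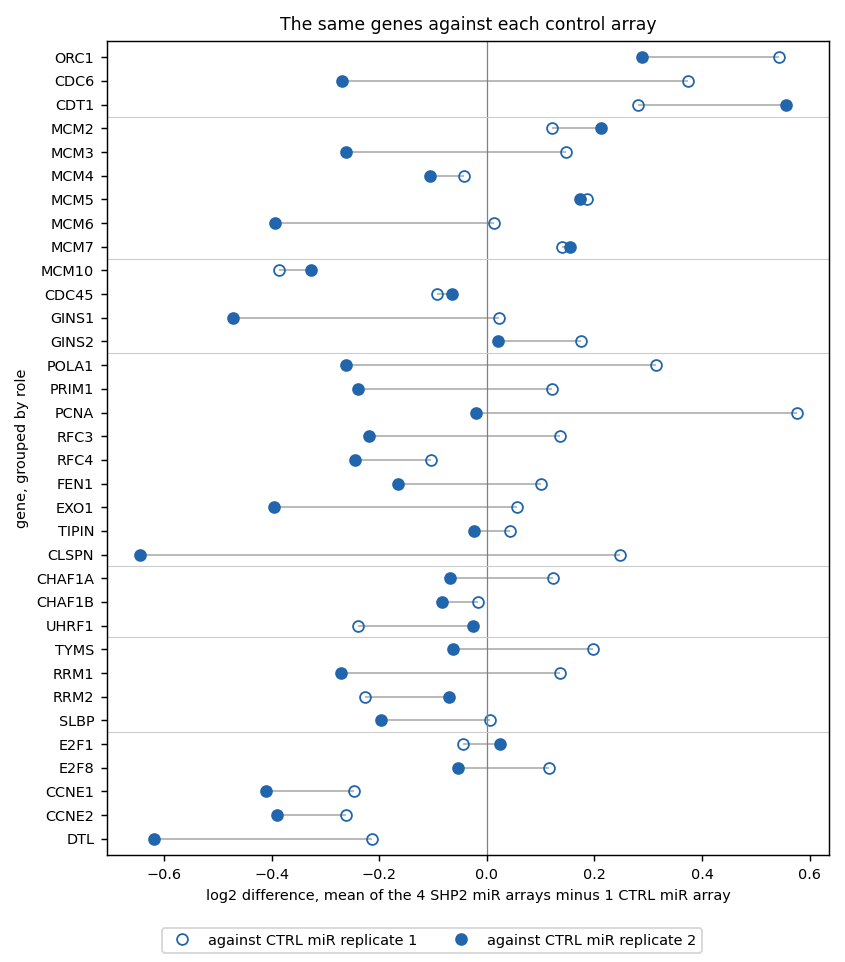
Mean of the 4 SHP2 miR arrays minus CTRL miR replicate 1 (open circles) and minus CTRL miR replicate 2 (filled circles) on the log2 scale, for each gene grouped by role, joined by a line. For 18 of 34 genes the line crosses 0, CLSPN with the widest span at 0.25 and -0.65, while ORC1 and CDT1 stay above 0 and DTL, CCNE1, CCNE2 and MCM10 below.

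Genes of neighbouring steps were counted on lists written beside the 34. Of 41 further replication factors, 1 passed as lower and 0 as higher in the average comparison, against 2.67% lower and 1.53% higher of all genes, with a median of -0.13. It was TICRR, or treslin, which brings CDC45 to origins, with 5.61 and 5.79 under SHP2 miR1, 5.77 and 6.09 under SHP2 miR2, against 6.49 and 6.58 with CTRL miR. TICRR fell by 0.72 (SE 0.14, 1.65-fold, adjusted p = 0.0274). It missed the threshold without either control, at adjusted p = 0.0971 and 0.255, and without replicate 1 of SHP2 miR1 (0.0741) or SHP2 miR2 (0.0760). For SHP2 miR1 alone 2 of the 41 fell, TICRR and the clamp loader subunit RFC1, against 5.94% of all genes.

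Of 19 measured genes of nucleotide supply and replication-coupled chromatin, 2 rose and 0 fell in the average comparison. Of all genes 1.53% were higher and 2.67% lower. SHMT1, a folate enzyme that feeds thymidylate synthesis, had 6.80 and 6.96 under SHP2 miR1, 6.81 and 6.64 under SHP2 miR2, against 6.07 and 5.88 with CTRL miR, and rose by 0.83 (SE 0.14, 1.78-fold, adjusted p = 0.0120). SAMHD1, which breaks down deoxynucleotide triphosphates, had 5.44 and 5.49 under SHP2 miR1, 5.56 and 5.59 under SHP2 miR2, against 4.79 and 4.93 with CTRL miR, and rose by 0.66 (SE 0.13, 1.58-fold, adjusted p = 0.0236). Both control values of SAMHD1 lay within the range of CDKN2A and MTAP (4.62 to 5.14), so they may be near background. The list median was -0.15, so the 2 that passed ran against most of the list. SHMT1 missed the threshold without CTRL miR replicate 1 (adjusted p = 0.0586) or 2 (0.155), and SAMHD1 whichever array was omitted, its highest adjusted p being 0.133. For SHP2 miR1 alone the same 2 genes were the ones that rose, against 2.66% of all genes.

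Of 29 measured E2F and RB regulators 0 passed in the average comparison, against 4.20% of all genes, with a list median of -0.11. The regulators of smallest p were CDK6, a cyclin D kinase, at -0.47 (SE 0.13, adjusted p = 0.0930), and the activator E2F3 at -0.50 (SE 0.15, adjusted p = 0.105). With the SHP2 miRs E2F3 had values from 4.67 to 4.74, within the range of CDKN2A and MTAP, so these may be near background. For SHP2 miR1 alone 3 of the 29 fell, namely CDK6, CDK2 and E2F5, and 1 rose, E2F2, against 5.94% lower and 2.66% higher of all genes. Among 19 measured checkpoint and fork repair genes the median was -0.23. In the average comparison 1 of them fell and 0 rose, against 2.67% lower and 1.53% higher of all genes. For SHP2 miR1 alone 3 of the 19 fell (BRIP1, RAD17 and WRN), against 5.94% of all genes. BRIP1, a helicase of crosslink repair, had 4.54 and 4.43 under SHP2 miR1, 4.50 and 4.68 under SHP2 miR2, against 5.01 and 5.60 with CTRL miR. It fell by 0.77 (SE 0.18, 1.70-fold, adjusted p = 0.0468), and when single arrays were omitted it kept the threshold only without CTRL miR replicate 1 (0.0446). Without CTRL miR replicate 2 it had -0.47. Of the BRIP1 values, only the 5.60 lay above the range of CDKN2A and MTAP (4.62 to 5.14), so its signal may be near background.

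Among 30 measured mitosis genes the median was -0.29, and 2 genes fell, against 2.67% of all genes, while 0 rose. ANLN, which shapes the cleavage furrow, fell by 1.03 (SE 0.18, adjusted p = 0.0151) and the checkpoint kinase gene BUB1 by 0.57 (SE 0.13, adjusted p = 0.0488). Without either control ANLN missed the threshold, at 0.0746 and 0.203, whereas BUB1 missed it whichever array was omitted, its highest adjusted p being 0.352. At an unadjusted p under 0.05, 12 of the 30 mitosis genes were counted, all lower. So were 6 of the 34 replication genes, in both directions, and 20.9% of all genes, higher and lower together. For SHP2 miR1 alone 18 of the 30 mitosis genes were counted, all lower, against 28.1% of all genes, higher and lower together. Of the 30, 3 passed the adjusted threshold as lower (ANLN, BUB1 and KIF23), against 5.94% of all genes. By array, the median of the 34 genes around the control mean was -0.17 and -0.06 under SHP2 miR1, -0.06 and 0.09 under SHP2 miR2, against -0.09 and 0.09 with CTRL miR. The SHP2 miR2 arrays lay within the controls and 1 SHP2 miR1 array below them. The mitosis median was -0.51 and -0.32 under SHP2 miR1, -0.21 and -0.08 under SHP2 miR2, against -0.10 and 0.10 with CTRL miR. Only the SHP2 miR2 replicate 2 array lay between the controls. The difference between the lists was not tested. With SHP2 miR2 alone, 0 genes of these neighbouring lists passed.

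**Figure D4:**
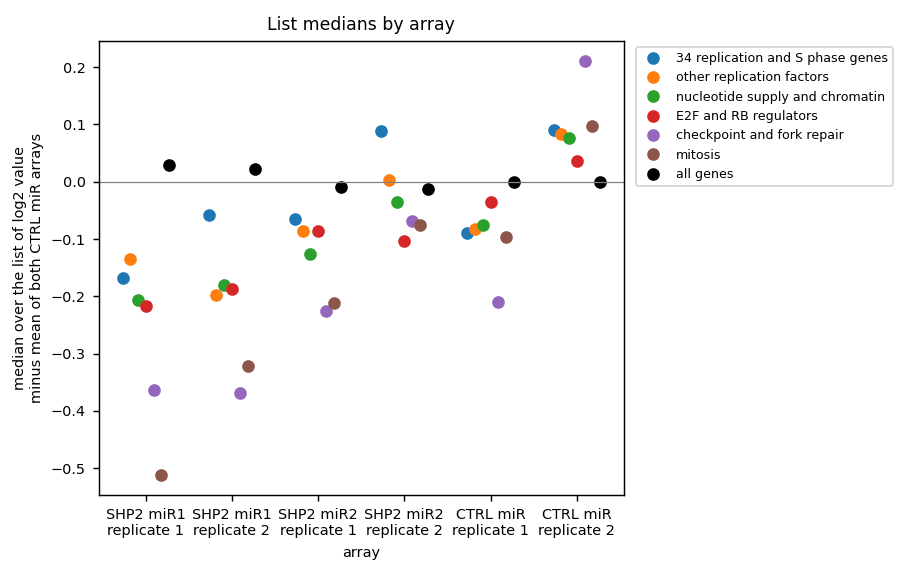
Median over each gene list of the log2 value minus the mean of both CTRL miR arrays (vertical axis), for each of the 6 arrays. The 34 replication and S phase genes lie between -0.17 and 0.09 on all arrays and the mitosis genes between -0.51 and 0.10, the mitosis median being lower on both SHP2 miR1 arrays than on the other 4.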

How the data were processed

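Gene expression was measured from total RNA (100 ng per array) on 6 Affymetrix HuGene-1_0-st-v1 arrays, in 3 groups of 2 named by the sample titles. The deposited values are log2, as judged from the values, which the labels leave without a stated base. R 2.10 and oligo 1.8 were used, per the submitters' processing notes. Background correction, normalization, summary, build: not given in the sources used here. Of 28869 probe sets, 19310 had 1 gene symbol, 1752 several and 7807 none; 18377 genes were kept. A limma 3.58.1 model with 3 groups (R 4.3.3) was fitted to all 6 arrays and moderated with eBayes, with two-sided p-values adjusted by Benjamini-Hochberg over all genes (threshold 0.05). It was tested on simulated data. The members, lists and roles were chosen with earlier results of these data known. All 34 members are named, with PTPN11. From each other list up to 4 passing genes by smallest p are named, or 2 as values; marker genes, TIMELESS and list genes given for SHP2 miR1 alone were named outside that rule after their values were seen. No identical arrays were found. The number of arrays limits the precision. Alternatives were quantile normalization, median centring, a filter on dim genes, a mean-variance trend, a robust prior, array weights and averaged probe sets. Others were a fit restricted to the compared groups, a replicate block, and leaving out each array. The filter dropped genes with a mean at or below the 40th percentile of all probe sets, which left out E2F8, CCNE2 and CLSPN.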

Additional observations from a re-analysis of the deposited data

Results flagged for a closer look

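TIPIN was singled out because both SHP2 miR2 arrays lay above both controls and both SHP2 miR1 arrays below them. Such opposed placement, in either orientation, was found in 1 of 34 members and in 3.19% of all genes. The difference of 0.60 between the SHP2 miRs did not pass the threshold (limma adjusted p = 0.140), and adjusted p lay between 0.0953 and 0.454 over the alternatives.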

How the results depend on the processing

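The average difference kept its sign for 11 of 34 members under each of the 14 alternatives that gave a value (CCNE2 has none with dim genes left out); it turned for 21 with an array left out and for 10 under another alternative. The cause was not tested. Under quantile normalization E2F1 had 0.024, E2F8 -0.055, FEN1 0.050, MCM3 0.030, MCM4 0.012, RRM1 0.00 and TIPIN -0.012. Centred on array medians, CHAF1A had -0.010, E2F8 -0.0063, POLA1 -0.011 and TIPIN -0.028, and with probe sets averaged UHRF1 had 0.047. With arrays left out, average differences ran from -0.16 to 0.0044 for CDC45, -0.27 to 0.37 for CDC6, -0.095 to 0.15 for CHAF1A, -0.65 to 0.25 for CLSPN, -0.084 to 0.063 for E2F1, -0.053 to 0.12 for E2F8, -0.40 to 0.056 for EXO1, -0.17 to 0.10 for FEN1, -0.47 to 0.023 for GINS1, -0.025 to 0.22 for GINS2, -0.26 to 0.15 for MCM3 and -0.39 to 0.014 for MCM6. They ran from -0.021 to 0.58 for PCNA, -0.26 to 0.31 for POLA1, -0.24 to 0.12 for PRIM1, -0.22 to 0.14 for RFC3, -0.27 to 0.14 for RRM1, -0.35 to 0.058 for RRM2, -0.20 to 0.0061 for SLBP, -0.070 to 0.088 for TIPIN and -0.063 to 0.20 for TYMS, and for MCM6 under SHP2 miR2 from -0.15 to 0.25. The members' median ran from -0.14 to 0.11 in the average comparison, -0.17 to 0.024 for SHP2 miR1 and -0.12 to 0.13 for SHP2 miR2. Members that fell under SHP2 miR1 numbered 1 with dim genes left out and 1 with a mean-variance trend (DTL in both). With dim genes left out, 2118 of all genes passed for SHP2 miR1, either direction. Without CTRL miR replicate 1, CLSPN had -0.87 under SHP2 miR1. Over all genes, 771 passed in the average comparison, 1793 with the trend, 185 without CTRL miR replicate 1 and 108 without replicate 2. For SHP2 miR1 1581 passed, 2786 with the trend and 269 to 1308 with arrays left out. For SHP2 miR2 68 passed, 154 with dim genes left out, 367 with the trend, 37 with the replicate block and 0 to 60 with arrays left out. Between the SHP2 miRs 35 passed, 69 after centring, 95 without dim genes, 446 with the trend, 55 with array weights, 12 with the replicate block, 12 with only those groups and 0 to 15 with arrays left out. The correlations of replicate differences between groups over all genes (0.07, 0.14 and 0.01) were not all above 0.1, so the numbers were not taken as pairs; among the 34 members replicate 2 was the higher for 24 in SHP2 miR1, 24 in SHP2 miR2 and 26 in CTRL miR. No member passed with the block in any comparison. BRIP1 missed the threshold with array weights (adjusted p = 0.0529), and BUB1 with a robust prior (0.0501) or array weights (0.0579). The 2 arrays per group limit precision.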
